A study of Mus musculus with 15 samples.

Results

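Among the macrophage transcripts of this study, 10 of the 55385 genes in the count table are described here. They moved one way with GM-CSF in cells that have STAT5 and the other way in cells that lack it. They are Bcl6, Smad3, Samd1, Fam111a, AU022793, Gpr146, Fzd7, Ptpn22, Lipe and Rab7b. The genes were chosen on exactly this behavior, so their levels with DMEM and with GM-CSF are given as a description, without a test, in both genotypes. All 10 passed the filter on low counts that left 13005 genes for testing. They are not every such gene, since 13 of those tested were called in opposite directions by the test given below. Bone marrow-derived macrophages (BMDMs) were grown from BALB/c mice, 6 weeks of age per the labels, whose Stat5 genes carried loxP sites. In STAT5 fl/fl mice these genes were intact, and in STAT5 cKO mice they were deleted by a Csf1r-iCre transgene, whose Cre is driven by the promoter of the CSF1 receptor gene, active in macrophages but not limited to macrophages of a tumor. Cells came from 2 mice with intact and 3 with deleted Stat5 genes, and those of each mouse were kept for 2 h in serum-free DMEM, in 20 ng/mL recombinant mouse GM-CSF (rmGM-CSF, here GM-CSF) or in 4T1 CM, medium conditioned by the mouse mammary tumor line 4T1. This gave 15 RNA-seq libraries in 6 groups, with the number in a library's title taken as its mouse, and another STAT5 fl/fl replicate had been removed after quality control.

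Library totals ranged from 16016736 to 22883108 fragment counts, and 3 counts, taken as the floor of detection, corresponded to 0.131 to 0.187 counts per 1000000 of a library (CPM), a floor that covers counting error only. Every value of the 10 genes lay far above it, the lowest being 135 counts. Stat5a had 29.0 to 45.0 CPM in STAT5 fl/fl libraries and at most 3 counts in any STAT5 cKO library, and Stat5b had 60.8 to 77.7 CPM and at most 4 counts, respectively. All 7 macrophage markers (Adgre1, Csf1r, Cd68, Itgam, Mertk, Fcgr1 and Lyz2) exceeded 1 CPM in every library. Their summed level did not overlap between the genotypes, at 26448 to 27175 CPM in STAT5 fl/fl and 33443 to 42646 CPM in STAT5 cKO BMDMs with 4T1 CM, and most of the sum was Lyz2. The part of this difference in the results below was not tested. Marker lists of T cells, B cells, neutrophils, dendritic cells, fibroblasts and erythroid cells summed to at most 4.92 CPM, and all markers of mast cells and NK cells were at 0. Levels are given as CPM of normalized counts, where each library total was multiplied by its relative log expression factor. In bulk RNA, fewer cells that express a gene and less RNA per cell cannot be told apart.

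GM-CSF signals through a receptor of a specific alpha chain and a shared beta chain, to which the kinase JAK2 is bound. JAK2 phosphorylates STAT5A and STAT5B, which enter the nucleus as dimers and bind DNA with the core sequence TTCNNNGAA, from where they can raise or lower transcription. The same receptor also drives signals that do not need STAT5, among them the MAP kinase, PI3 kinase and NF-kappaB pathways. Of the 10 genes, Bcl6 encodes a zinc finger repressor of transcription and is a known target of repression by STAT5 in lymphoid cells. SMAD3 carries signals of TGF-beta receptors to DNA, SAMD1 binds unmethylated CpG islands, and FAM111A is a protease of the nucleus that acts at stalled replication forks. AU022793 is annotated as a long intergenic non-coding RNA. GPR146 is an orphan G protein-coupled receptor, and FZD7 is a Frizzled receptor for Wnt proteins. PTPN22 is a tyrosine phosphatase that acts with CSK on SRC family kinases, RAB7B is a small GTPase of late endosomes and the trans-Golgi network that lowers Toll-like receptor signaling in macrophages, and Lipe encodes hormone-sensitive lipase.

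Promoter sequences are shown because the genes were chosen for a response that differed with the presence of STAT5, and the core sequence that STAT dimers bind can be searched for directly. RefSeq windows of 300 bases on GRCm38, from 250 bases before an annotated start of transcription to 50 after it, were given for 7 of the 10 genes, in 13 windows. The motif TTCNNNGAA, which reads the same on both strands, was present in 7 of these windows, at 8 positions, since the windows of both Fam111a starts overlap and hold the same match. Those windows belonged to Bcl6, Gpr146, Ptpn22, Fam111a and Lipe, and there was no match in the windows of Fzd7 and Smad3. Among all 32851 windows that RefSeq gave, 8.3% held the motif, as did 9.55% of the 27025 genes in any of their windows and 15.37% of the 4163 genes with at least 2 windows, the kind to which all 5 matching genes belong. The second start of Bcl6, within an intron of the longer transcript, held 3 matches, a number reached or exceeded in 11 of the 32851 windows (0.0335%). Rab7b, Samd1 and AU022793 were not listed. A match describes letters in a window and is not evidence of binding. Below, sequences are printed 5′ to 3′ on the strand of the gene up to the base before the start, or up to the first annotated exon where that comes earlier, with each match in capitals.
Bcl6, second start (chr16:23981284-23981533, minus strand, intron of Bcl6): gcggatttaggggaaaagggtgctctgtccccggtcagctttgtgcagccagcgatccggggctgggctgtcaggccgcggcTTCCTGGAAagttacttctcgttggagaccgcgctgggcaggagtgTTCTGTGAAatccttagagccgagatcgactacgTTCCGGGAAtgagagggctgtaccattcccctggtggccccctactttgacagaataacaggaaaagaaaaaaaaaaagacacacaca
Bcl6, first start (chr16:23988853-23989102, minus strand, upstream of the gene): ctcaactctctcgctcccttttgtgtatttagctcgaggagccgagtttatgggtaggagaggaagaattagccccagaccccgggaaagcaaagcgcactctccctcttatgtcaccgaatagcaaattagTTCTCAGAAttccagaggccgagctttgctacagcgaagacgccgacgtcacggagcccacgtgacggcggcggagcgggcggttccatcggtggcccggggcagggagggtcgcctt
Gpr146, second start (chr5:139380389-139380580, plus strand, intron of Gpr146): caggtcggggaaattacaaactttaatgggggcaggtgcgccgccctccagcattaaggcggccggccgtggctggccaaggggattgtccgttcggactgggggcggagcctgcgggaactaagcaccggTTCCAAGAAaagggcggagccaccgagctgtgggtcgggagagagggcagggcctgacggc
Ptpn22, second start (chr3:103860027-103860276, plus strand, intron of Ptpn22): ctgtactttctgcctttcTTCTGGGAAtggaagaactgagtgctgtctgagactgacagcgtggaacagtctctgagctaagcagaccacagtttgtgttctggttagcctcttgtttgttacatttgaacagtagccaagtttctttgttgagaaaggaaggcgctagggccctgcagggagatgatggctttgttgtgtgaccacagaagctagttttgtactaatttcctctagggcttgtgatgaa
Fam111a, first start (chr19:12573260-12573509, plus strand, intron of Fam111a): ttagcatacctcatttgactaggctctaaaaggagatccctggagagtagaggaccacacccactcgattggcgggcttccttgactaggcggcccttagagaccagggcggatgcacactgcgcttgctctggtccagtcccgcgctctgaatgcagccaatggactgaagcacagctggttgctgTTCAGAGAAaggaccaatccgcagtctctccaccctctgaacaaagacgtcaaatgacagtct
Counted from the start of transcription, the matches of the second Bcl6 start began at bases -168, -122 and -88, and that of the first at -118. The match of Gpr146 began at -119, that of Ptpn22 at -232 and that of Fam111a at -63, while a match of Lipe began at -3 and so spanned its start.

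**Figure D1:**
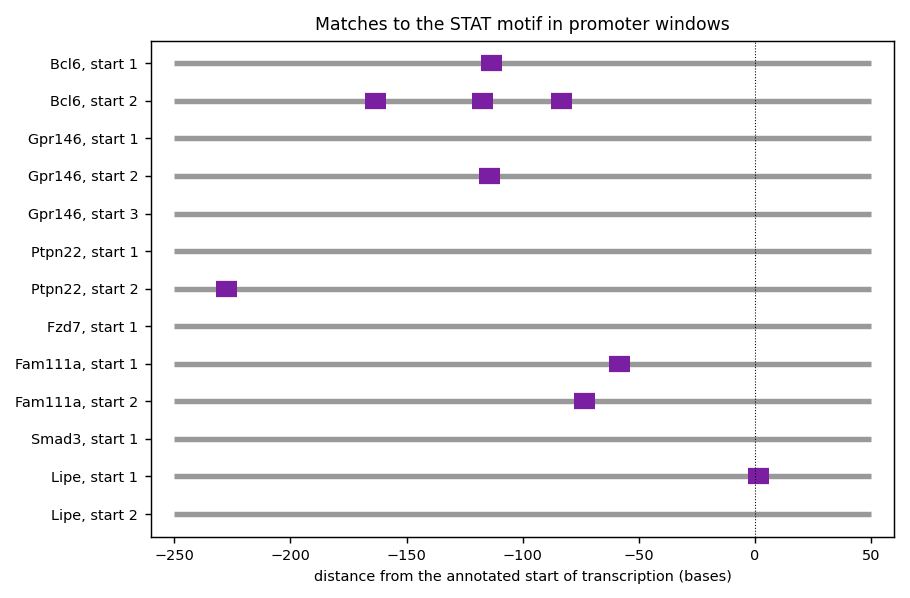
Positions of matches to TTCNNNGAA (boxes) in the 13 promoter windows (grey lines), with distance from the annotated start of transcription in bases on the horizontal axis. The second start of Bcl6 holds 3 matches and the windows of Fzd7 and Smad3 hold none.

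Few genes were called in opposite directions with GM-CSF in the 2 genotypes. With an adjusted p under 0.01 in edgeR's quasi-likelihood test, 3730 genes (28.7% of those tested) differed between GM-CSF and DMEM in STAT5 fl/fl BMDMs and 3052 (23.5%) in cells without STAT5. Higher genes made up 16% and 13.4% of all genes, and lower genes 12.7% and 10%, respectively. Of the 2448 genes called in both, 13 (0.1% of all genes tested) had opposite signs, and these 13 include all 10 genes described. Blocked by mouse, the same contrasts gave 20 such genes. Bcl6, Ptpn22, Rab7b, Fam111a and Smad3 were lower with GM-CSF in STAT5 fl/fl and higher in STAT5 cKO BMDMs, and Gpr146, AU022793, Fzd7, Samd1 and Lipe the reverse. The gap between the responses, on the log2 scale, ran from 3.97 in Bcl6 to 0.654 in Lipe. The other 3 genes with opposite calls lay within or below this range, with a gap of 1.01 in Gm30329, 0.708 in Rnf180 and 0.539 in Tec. As these values chose the genes, the calls are no support for the pattern. When a single mouse was left out, fewer of the 10 passed the threshold in both genotypes, namely 4 without mouse 112 or 115, 5 without 113, 6 without 116 and 7 without 114.

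**Figure D2:**
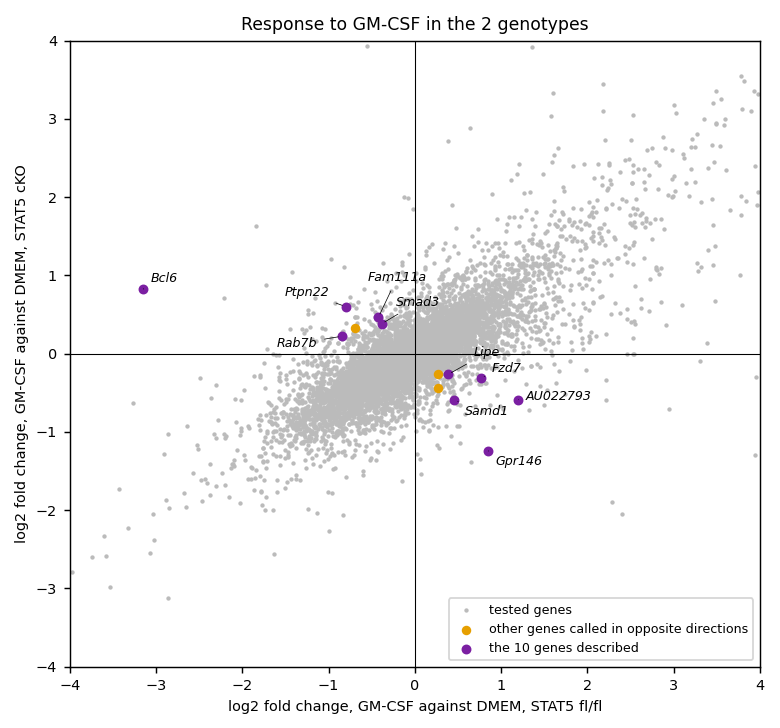
Each point is a tested gene, with its log2 fold change of GM-CSF against DMEM in STAT5 fl/fl (horizontal) and STAT5 cKO BMDMs (vertical), and 65 genes lie outside the axes. The 10 genes described (purple) lie in the quadrants of opposite sign, with Bcl6 farthest from the diagonal at -3.15 and 0.83, and the other 3 genes with opposite calls are orange.

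Bcl6 (ENSMUSG00000022508, chr16:23965052-23988852, minus strand) showed the widest separation. Its levels with DMEM overlapped between the genotypes, at 139 and 153 CPM in the STAT5 fl/fl mice and 153, 157 and 143 CPM in the STAT5 cKO mice. With GM-CSF it was 16.5 CPM in both STAT5 fl/fl libraries, and 263, 265 and 276 CPM in the STAT5 cKO libraries. Thus the same treatment left an 8.87-fold lower level in STAT5 fl/fl BMDMs (log2 fold change -3.15, standard error 0.08) and a 1.77-fold higher level in STAT5 cKO BMDMs (0.83, standard error 0.06). The group means of Bcl6 spanned a range of 16.3-fold, from STAT5 fl/fl to STAT5 cKO BMDMs with GM-CSF, the widest of the 10 genes. In the order of its 6 group means, only the neighbors STAT5 cKO and STAT5 fl/fl with DMEM had libraries that overlapped.

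Smad3 (ENSMUSG00000032402, chr9:63646767-63757994, minus strand), the receptor-regulated SMAD, started lower in the cells without STAT5. With DMEM it had 35.8 and 37.6 CPM in STAT5 fl/fl libraries and 31.5, 25.1 and 28.6 CPM in STAT5 cKO libraries. With GM-CSF these levels were 29.1 and 27.3 CPM against 38.8, 34.1 and 38.2 CPM, so the order of the genotypes was exchanged. The responses were nearly mirror images, with log2 fold changes of -0.38 in STAT5 fl/fl and 0.38 in STAT5 cKO BMDMs. Samd1 (ENSMUSG00000079003, chr8:83997501-84000409) did not differ in this way before treatment. Its DMEM libraries overlapped, with 28.5 and 27.5 CPM in STAT5 fl/fl and 25.4, 28.3 and 25.9 CPM in STAT5 cKO BMDMs. After GM-CSF they had 40.7 and 36.2 CPM against 17.1, 18.8 and 16.7 CPM, a gap of 2.19-fold between the genotypes.

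Fam111a (ENSMUSG00000024691, chr19:12545740-12589768), the nuclear protease gene, had the smallest span of group means but for Lipe, 1.61-fold. STAT5 fl/fl libraries had 61.2 and 58.9 CPM with DMEM and 44.6 and 45.1 CPM with GM-CSF, while STAT5 cKO libraries had 47.0, 49.8 and 59.8 CPM and 68.8, 76.0 and 71.6 CPM, respectively. The non-coding RNA AU022793 (ENSMUSG00000115230, chr15:39962649-39967024) already had more RNA in STAT5 fl/fl cells with DMEM, at 22.3 and 23.5 CPM against 19.1, 16.4 and 13.8 CPM. GM-CSF widened the gap, to 50.3 and 54.9 CPM against 11.1, 10.7 and 10.9 CPM. Its STAT5 fl/fl level was 2.30-fold higher than with DMEM, and its STAT5 cKO level 1.504-fold lower.

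The 2 receptor genes were both higher with GM-CSF only where STAT5 was present. Gpr146 (ENSMUSG00000044197, chr5:139377697-139396415) is best known in liver, where it bears on plasma cholesterol. With DMEM its 5 libraries lay between 63.9 and 70.8 CPM, and the genotypes overlapped. With GM-CSF it had 126 and 125 CPM in the STAT5 fl/fl mice and 30.0, 25.7 and 31.3 CPM in the STAT5 cKO mice. The fold changes were 1.81 upward and 2.37 downward, so that the larger movement of Gpr146 was that of the cells without STAT5, unlike in Bcl6. The Wnt receptor gene Fzd7 (ENSMUSG00000041075, chr1:59482424-59486955) had 48.5 and 55.4 CPM with DMEM and 86.5 and 90.3 CPM with GM-CSF in STAT5 fl/fl libraries. In STAT5 cKO libraries it had 40.2, 42.8 and 41.2 CPM and then 31.3, 34.1 and 34.8 CPM, so that with GM-CSF the genotypes stood 2.65-fold apart.

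Ptpn22 (ENSMUSG00000027843, chr3:103859795-103912247), the gene of the PEST family phosphatase, was the least abundant of the 10 per exon length, with group means of 1.30 to 4.24 FPKM (CPM per kilobase of exon). Its counts may include reads of Gm15472 and Gm43065, which overlap it on the same strand. It had 15.8 and 15.04 CPM with DMEM and 8.40 and 9.27 CPM with GM-CSF in STAT5 fl/fl libraries. In STAT5 cKO libraries the values were 22.4, 16.5 and 18.2 CPM and then 32.6, 29.2 and 24.3 CPM, the latter all above every other Ptpn22 library with DMEM or GM-CSF. Rab7b (ENSMUSG00000052688, chr1:131688695-131715439) had group means of 29.5 to 68.98 FPKM, the highest of the 10 in 5 of the 6 groups, and was below AU022793 (38.2 FPKM) in STAT5 fl/fl BMDMs with GM-CSF. Its level in STAT5 fl/fl libraries was 249 and 240.2 CPM with DMEM and 142 and 131 CPM with GM-CSF. The STAT5 cKO libraries went from 188, 194 and 205 CPM to 228, 222 and 234 CPM, a 1.17-fold difference. It was the smallest response to GM-CSF of any of the 10 genes in either genotype. Lipe (ENSMUSG00000003123, chr7:25379527-25398710, minus strand) had 29.0 and 33.4 CPM with DMEM and 41.2 and 40.6 CPM with GM-CSF in STAT5 fl/fl cells, against 34.8, 33.97 and 34.7 CPM and then 28.8, 27.8 and 29.6 CPM in STAT5 cKO cells.

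**Figure D3:**
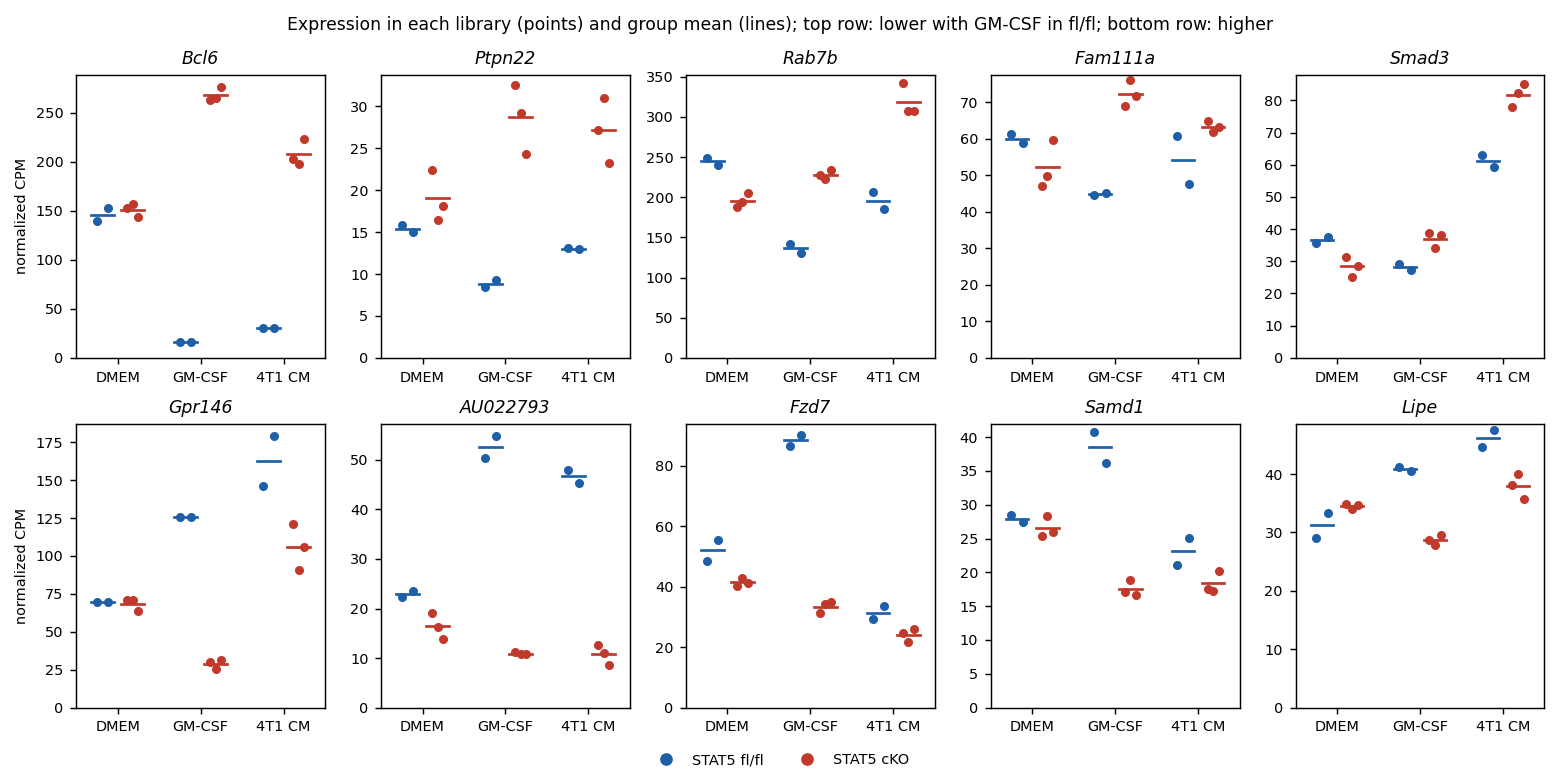
Normalized CPM of the 10 genes in each of the 15 libraries (points) with the group mean (line), by treatment on the horizontal axis and by genotype in color. In every panel the STAT5 fl/fl and STAT5 cKO points are apart with GM-CSF, and for Bcl6 they run from 16.5 to 276 CPM.

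Differences between the genotypes with DMEM and with GM-CSF come from the libraries that chose the genes and are given as a description. With DMEM the size of the log2 difference had a median of 0.25 over the 10 genes and 0.13 over all genes tested, and with GM-CSF a median of 1.27 against 0.17. A choice of genes that move in opposite directions with GM-CSF sets the genotypes apart there, so nothing is read from these medians or from the counts that follow. With GM-CSF none of the 10 genes overlapped between the genotypes, as was the case for 49% of all genes tested, and with DMEM 6 did not overlap, against 39.9% of all genes. With DMEM, AU022793, Fzd7, Rab7b and Smad3 were lower and Ptpn22 and Lipe higher in STAT5 cKO libraries. Of these, Rab7b, Smad3 and Lipe had the opposite order with GM-CSF.

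**Figure D4:**
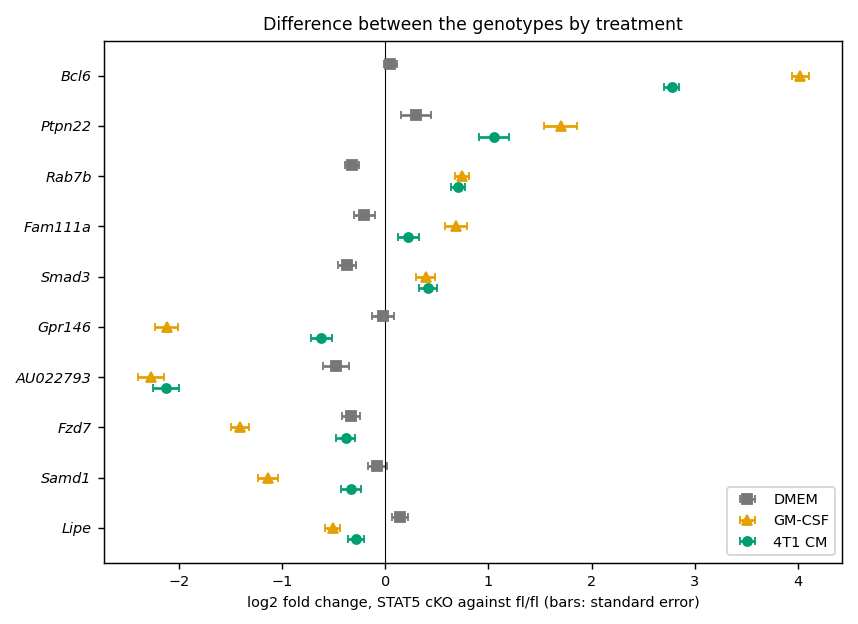
Log2 fold change of STAT5 cKO against STAT5 fl/fl BMDMs for each gene with DMEM (squares), GM-CSF (triangles) and 4T1 CM (circles), with bars of 1 standard error. The 4T1 CM differences, from libraries of the same mice that did not enter the choice of the genes, lie on the same side of 0 as the GM-CSF differences in all 10 genes. The same held for 89.6% of the 1292 genes called between the genotypes with GM-CSF.

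Whether the genotypes also differed in these genes with tumor cell medium was asked in 5 libraries that the choice of genes had not used, though they came from the same mice. The test took its spread from all 15 libraries, those of the choice among them, so its p-values do not rest on unused libraries alone. Fitted to the 5 libraries only, 4 of the 10 genes and 279 genes in all passed. With 4T1 CM, Bcl6, Ptpn22, Rab7b and Smad3 were higher and AU022793, Gpr146 and Fzd7 lower in STAT5 cKO BMDMs, so 7 of the 10 genes passed the test, against 7.44% of all genes tested (968 genes). In either direction the share among all genes was 4.01% (higher) and 3.43% (lower). All 10 were also called between the genotypes with GM-CSF, and of the 1292 genes with that call 556 (43%) were called with 4T1 CM as well. These 1292 genes were 9.93% of those tested. All 10 differences had the sign seen with GM-CSF, a sign kept by 1158 of the 1292 genes (89.6%). Likewise no gene of the 10 overlapped between the genotypes, which held for 39.3% of all genes. The median size of the log2 difference was 0.52 over the 10 genes and 0.15 over all genes.

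Bcl6 had 30.5 and 30.2 CPM with 4T1 CM in the STAT5 fl/fl mice and 203, 198 and 224 CPM in the STAT5 cKO mice. This 6.85-fold difference (log2 fold change 2.78, standard error 0.08, adjusted p = 9.46e-14) was the largest of the 10. AU022793 came next in size, with 48.1 and 45.4 CPM against 12.6, 11.0 and 8.64 CPM (log2 fold change -2.13, standard error 0.13, adjusted p = 1.03e-08). Ptpn22 had 13.1 and 13.0 CPM against 27.2, 31.0 and 23.3 CPM, a difference of 1.06 on the log2 scale (standard error 0.15, adjusted p = 0.000105). For all of these the lowest library of the higher genotype was well above the highest of the other. Rab7b had 206 and 185 CPM in STAT5 fl/fl and 342, 307 and 307 CPM in STAT5 cKO libraries (log2 fold change 0.70, standard error 0.07, adjusted p = 3.43e-06). Bcl6, AU022793, Ptpn22 and Rab7b passed the threshold in all 13 alternative fits, with adjusted p-values of at most 0.00955 in any of them.

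The other calls were less secure. Gpr146 had 146 and 179 CPM in STAT5 fl/fl and 121, 90.8 and 106 CPM in STAT5 cKO libraries with 4T1 CM (log2 fold change -0.62, standard error 0.10, adjusted p = 0.000615). It passed in 11 of 13 alternatives, with adjusted p-values from 4.53e-13 to 0.0575, the latter without STAT5 fl/fl mouse 113. Smad3 had 63.2 and 59.2 CPM against 78.1, 82.1 and 85.0 CPM (log2 fold change 0.42, standard error 0.09, adjusted p = 0.00301). Its call was lost without mouse 112 (adjusted p = 0.0237), 113 (0.0863) or 116 (0.0184), in a range of 7.39e-05 to 0.0863 over 13 alternatives. Fzd7, at 29.2 and 33.7 CPM against 24.7, 21.6 and 26.0 CPM, lay at the threshold (log2 fold change -0.38, standard error 0.09, adjusted p = 0.00965). It passed in only 4 of 13 alternatives, with adjusted p-values from 0.00138 to 0.167, and leaving out any of the mice 112, 113, 114, 115 or 116 ended its call (0.013, 0.167, 0.0225, 0.0581 and 0.0125). In a model of these 5 libraries alone 4 of the 10 genes passed, namely Bcl6, AU022793, Ptpn22 and Rab7b.

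Samd1, Fam111a and Lipe did not pass. Samd1 had 21.2 and 25.1 CPM in STAT5 fl/fl and 17.5, 17.3 and 20.3 CPM in STAT5 cKO libraries (log2 fold change -0.33, standard error 0.10, adjusted p = 0.0335), and Lipe had 44.6 and 47.6 CPM against 38.1, 40.0 and 35.7 CPM (-0.28, standard error 0.07, adjusted p = 0.0164). Fam111a had 60.7 and 47.5 CPM against 64.8, 61.8 and 63.2 CPM (0.23, standard error 0.10, adjusted p = 0.15), and its STAT5 fl/fl libraries were farther apart than the group means. A p-value above the threshold does not show that these genes were alike in the genotypes.

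4T1 CM against DMEM asks whether the tumor cell medium, which itself contains GM-CSF, moved the genes as GM-CSF did. These comparisons reuse the DMEM libraries on which the genes were chosen and are secondary for that reason. The 10 were chosen as genes that respond to GM-CSF in both genotypes, which all genes tested were not. Nothing is therefore read from the shares that follow. In STAT5 fl/fl BMDMs, 7 of the 10 genes passed the test (4 higher and 3 lower), against 37.2% of all genes (19.1% higher and 18% lower), and in STAT5 cKO BMDMs 8 passed (5 higher and 3 lower), also against 37.2% (19% and 18.2%). Bcl6, AU022793 and Rab7b were again called in opposite directions, as were 12 genes in all (0.0923%). Bcl6 fell in STAT5 fl/fl BMDMs (log2 fold change -2.27, adjusted p = 3.30e-13) and rose in STAT5 cKO BMDMs (0.46, adjusted p = 3.76e-06). AU022793 rose by 1.03 (adjusted p = 5.78e-06) in the former and fell by 0.61 (adjusted p = 0.000442) in the latter on the log2 scale. Rab7b fell by 0.32 in STAT5 fl/fl BMDMs (adjusted p = 0.00179), a call lost without mouse 112 (0.0103) or 113 (0.0539) in a range of 0.000189 to 0.0539 over 14 alternatives, and rose by 0.71 in STAT5 cKO BMDMs (adjusted p = 3.54e-08).

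Of the other genes, Smad3, Gpr146, Fzd7, Samd1 and Lipe had log2 fold changes of 1 sign in both genotypes with 4T1 CM, and Ptpn22 and Fam111a had opposite signs, as with GM-CSF. Smad3 rose with 4T1 CM in both genotypes, by 0.74 in STAT5 fl/fl (adjusted p = 5.83e-06) and by 1.53 in STAT5 cKO BMDMs (adjusted p = 3.69e-11) on the log2 scale. Gpr146 also rose in both, by 1.23 (adjusted p = 1.48e-07) and 0.63 (adjusted p = 3.13e-05), where with GM-CSF its STAT5 cKO level had been 2.37-fold lower. Fzd7 fell in both, by 0.73 (adjusted p = 9.39e-06) and 0.78 (adjusted p = 4.16e-07), where with GM-CSF its STAT5 fl/fl level had been 1.70-fold higher. Ptpn22 rose in STAT5 cKO BMDMs (0.51, adjusted p = 0.00215), a call lost without mouse 115 (0.32, adjusted p = 0.0855, in a range of 1.36e-06 to 0.0855), and Samd1 fell there (-0.53, adjusted p = 7.44e-05). In STAT5 fl/fl BMDMs Lipe rose (0.56, adjusted p = 2.40e-05). Values that did not pass in STAT5 fl/fl BMDMs were -0.24 for Ptpn22 (adjusted p = 0.232), -0.28 for Samd1 (0.0397) and -0.15 for Fam111a (0.277). In STAT5 cKO BMDMs they were 0.14 for Lipe (0.105) and 0.28 for Fam111a (0.0159), which passed with the mouse as a block (0.00756, in a range of 0.00204 to 0.17 over 14 alternatives).

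**Figure D5:**
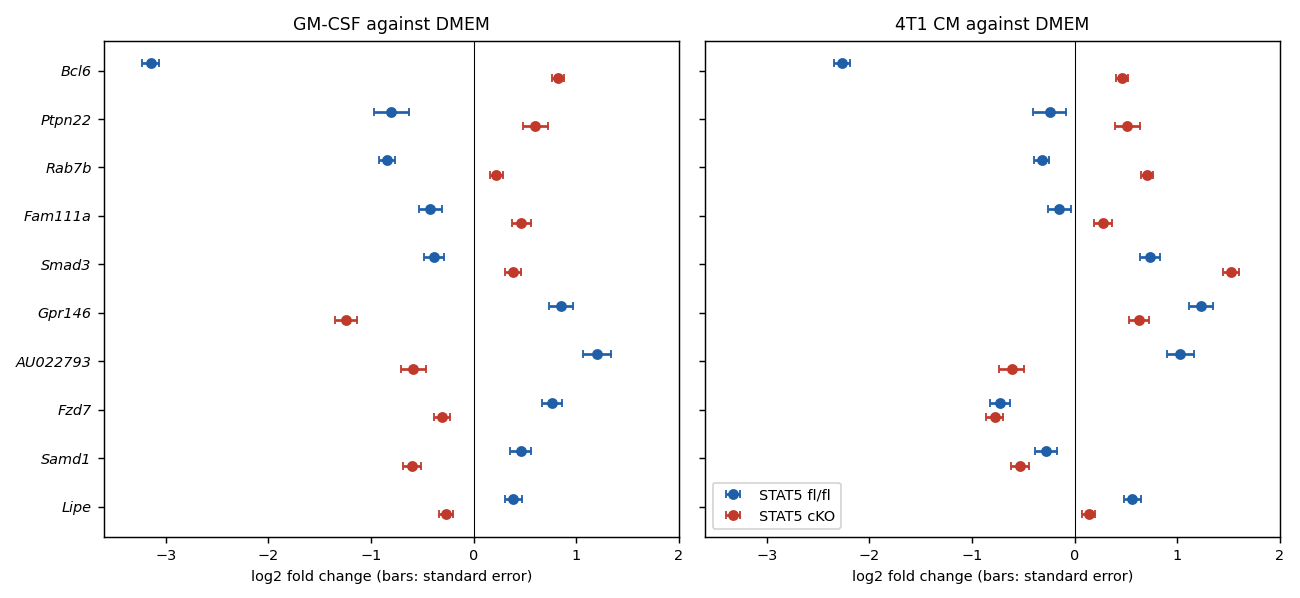
Log2 fold change against DMEM of GM-CSF (left) and 4T1 CM (right) in STAT5 fl/fl (blue) and STAT5 cKO BMDMs (red), with bars of 1 standard error. With GM-CSF each pair lies on opposite sides of 0, and with 4T1 CM Smad3, Gpr146, Fzd7, Samd1 and Lipe have both values on 1 side.

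The difference between the genotypes in the response to 4T1 CM was tested directly as an interaction, which 170 genes (1.31%, with 0.761% positive and 0.546% negative) and 4 of the 10 genes (3 positive and 1 negative) passed. It reuses the DMEM libraries on which the genes were chosen and is secondary as well. Each interaction also contains the genotype difference with DMEM. On the log2 scale, STAT5 cKO against STAT5 fl/fl, that was 0.05 in Bcl6, -0.48 in AU022793, -0.32 in Rab7b and -0.37 in Smad3. With a replicate block for the mouse, 295 genes passed. Bcl6 responded 2.73 higher on the log2 scale where STAT5 was deleted (standard error 0.10, adjusted p = 2.17e-11), Rab7b 1.03 higher (standard error 0.10, adjusted p = 2.37e-05) and Smad3 0.79 higher (standard error 0.12, adjusted p = 0.00137). The response of AU022793 differed by -1.65 (standard error 0.18, adjusted p = 7.52e-05). The interaction of Smad3 did not pass without mouse 112 (0.0211), 113 (0.0856) or 116 (0.0112), in a range of 1.45e-07 to 0.0856 over 14 alternatives. Gpr146 had a difference of -0.60 (adjusted p = 0.0361) that passed with the mouse as a block (-0.60, adjusted p = 0.00843, in a range of 2.17e-05 to 0.499). Lipe (-0.43, adjusted p = 0.0353), Ptpn22 (0.76, 0.0514), Fam111a (0.43, 0.14), Samd1 (-0.26, 0.43) and Fzd7 (-0.05, 0.913) did not pass.

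Genes that act beside these 10 were counted in 7 lists, to be read against the 28.7% and 23.5% of all genes that differed with GM-CSF in STAT5 fl/fl and STAT5 cKO BMDMs. Counts between the genotypes with 4T1 CM are to be read against 4.01% of all genes higher and 3.43% lower in STAT5 cKO BMDMs (7.44% in all). In a list around the receptor, JAK2 and STAT5 (Csf2ra, Csf2rb, Csf2rb2, Jak2, Stat5a, Stat5b), 4 of 6 genes were higher with GM-CSF in STAT5 fl/fl and 2 of 6 in STAT5 cKO BMDMs. Csf2rb2 is listed beside Csf2rb but is not the shared beta chain of the GM-CSF receptor. The median log2 fold changes were 0.66 and 0.53, against -0.01 and -0.00357 over all genes. The STAT5 cKO count and median include the deleted Stat5a and Stat5b. Their log2 fold changes there, 0.76 and 1.13, rest on at most 3 and 4 counts in a library. The medians of the genotypes are therefore not comparable. Csf2rb, the common beta chain, rose from 617 ± 0.559 CPM (SD, n = 2) to 1669 ± 14.2 CPM in STAT5 fl/fl (log2 fold change 1.44, adjusted p = 2.36e-10) and from 588 ± 32.3 CPM (SD, n = 3) to 719 ± 53.5 CPM in STAT5 cKO BMDMs (0.29, adjusted p = 0.00227). Jak2 rose by 1.42 and 1.23 on the log2 scale, respectively, and Csf2rb2 by 0.76 in STAT5 fl/fl BMDMs (adjusted p = 6.85e-07), with 0.15 in STAT5 cKO BMDMs (adjusted p = 0.0881). With 4T1 CM, 4 of the 6 were lower where STAT5 was deleted, namely the deleted genes Stat5a and Stat5b, Csf2rb (-0.61, adjusted p = 1.92e-05) and Csf2rb2 (-0.39, adjusted p = 0.00129). Csf2rb and Csf2rb2 were also lower there with GM-CSF (-1.21, adjusted p = 2.03e-09, and -0.73, adjusted p = 9.55e-07).

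Among 12 genes of the BCL6 paralogue and its corepressors, 3 rose and 1 fell with GM-CSF in STAT5 fl/fl BMDMs, and 2 rose and 1 fell in STAT5 cKO BMDMs. The median log2 fold changes were 0.14 and 0.05. Bcor, a corepressor that binds BCL6, rose in both (2.06 and 1.502), and Hdac5, a class IIa histone deacetylase, fell in both (-0.78 and -0.37). The paralogue Bcl6b rose from 0.266 to 1.91 CPM in STAT5 fl/fl and from 0.115 to 0.633 CPM in STAT5 cKO BMDMs, with DMEM levels near the floor of detection. Hdac5 was the only one of the 12 that differed between the genotypes with 4T1 CM (0.63 higher in STAT5 cKO, adjusted p = 0.000198). Its difference with GM-CSF was similar (0.59, adjusted p = 0.000346). Of 18 tested genes of TGF-beta and SMAD signaling, 5 rose and 2 fell with GM-CSF in STAT5 fl/fl and 5 rose and 0 fell in STAT5 cKO BMDMs, with medians of 0.08 and 0.05. Skil, a SMAD corepressor, rose by 1.27 and 0.98, the ligand gene Tgfb1 by 0.84 and 0.27, and the receptor gene Tgfbr2 by 0.68 and 0.23. These 3 rose in both genotypes, unlike Smad3. With 4T1 CM, 3 of the 18 were higher in STAT5 cKO, among them the ligand gene Tgfb3 (0.86, adjusted p = 6.14e-05) and the inhibitory Smad7 (0.67, adjusted p = 0.0019), and 1, Tgfb1, was lower (-0.28, adjusted p = 0.00527). Smad7 and Tgfb1 differed in the same direction with GM-CSF (0.83, adjusted p = 0.00597, and -0.67, adjusted p = 4.16e-07), and Tgfb3 was not called there (0.20, adjusted p = 0.559).

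Of 11 tested Frizzled receptors and partners, 3 rose and 3 fell with GM-CSF in either genotype, with medians of -0.11 in STAT5 fl/fl and -0.17 in STAT5 cKO BMDMs. Fzd5 (0.65 and 1.05) and Fzd1 (1.12 and 2.22) rose in both, unlike Fzd7, and the adaptor gene Dvl2 fell in both (-0.66 and -0.58). Lrp5, a coreceptor, was the only one that differed between the genotypes with 4T1 CM (0.49 higher in STAT5 cKO, adjusted p = 0.000944). Of 9 tested genes of lipolysis and lipid droplets, 0 rose and 5 fell with GM-CSF in STAT5 fl/fl and 1 rose and 2 fell in STAT5 cKO BMDMs, with medians of -0.29 and -0.16. The droplet coat gene Plin2 fell in both (-0.57 and -0.28). Pde3b, which hydrolyzes cAMP, fell in STAT5 fl/fl BMDMs (-0.86, adjusted p = 0.00019), with -0.35 in STAT5 cKO BMDMs that did not pass (adjusted p = 0.0325). The lipase inhibitor Hilpda rose in STAT5 cKO BMDMs (0.70, adjusted p = 4.11e-05), with 0.45 in STAT5 fl/fl BMDMs that did not pass (adjusted p = 0.0165). With 4T1 CM, Hilpda was higher (0.76, adjusted p = 4.03e-05) and Mgll, the monoglyceride lipase, lower (-0.66, adjusted p = 0.00237) in STAT5 cKO. Hilpda was also higher in STAT5 cKO BMDMs with GM-CSF (0.65, adjusted p = 0.000972). Mgll was lower in STAT5 cKO BMDMs already with DMEM (-1.01, adjusted p = 0.00013), so its difference was not particular to 4T1 CM.

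Of 13 genes of PEST phosphatases, CSK and SRC family kinases, 7 rose and 2 fell with GM-CSF in STAT5 fl/fl BMDMs, and 8 rose and 0 fell in STAT5 cKO BMDMs, with medians of 0.37 and 0.49. Ptpn12, the paralogue of Ptpn22, rose in both (1.62 and 1.32), as did the adaptor gene Pstpip2 (2.07 and 1.03). With 4T1 CM, the CSK anchor Pag1 (0.85, adjusted p = 1.30e-05) and the phosphatase gene Ptpn6 (0.26, adjusted p = 0.00514) were higher in STAT5 cKO. Of 15 genes of RAB7 and late endosome trafficking, 3 rose and 4 fell in STAT5 fl/fl and 2 rose and 4 fell in STAT5 cKO BMDMs, with medians of -0.14 and 0.000406. The tether gene Vps39 (-0.96 and -0.47), Rab9 (-1.08 and -0.75) and the adaptor gene Plekhm1 (-0.82 and -0.86) fell in both. With 4T1 CM 0 of the 15 differed between the genotypes by edgeR's quasi-likelihood test.

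The genes most like each of the 10 over all 15 libraries were found by Pearson correlation of log2 CPM, a description in which libraries share treatment, genotype and mouse. Closest to Bcl6 were Gnl3l (r = 0.927), Cd300lb (0.926), Cdyl2 (0.899), Ubb (0.898) and Kdm5a (0.894). None of these ranged as widely. Cd300lb, for one, had 299.5 ± 8.36 CPM (SD, n = 2) with GM-CSF in STAT5 fl/fl and 439 ± 4.70 CPM (SD, n = 3) in STAT5 cKO BMDMs. By Spearman correlation 0 of these 5 stayed among the top 5, so the likeness depends on the measure. Gpr146 was most like Irf8 (0.944), AU022793 most like Dapk1 (0.964) and Fzd7 most like Abcg1 (0.967), the gene of a sterol exporter. Abcg1 followed Fzd7 closely, with 568 and 854 CPM for DMEM and GM-CSF in STAT5 fl/fl and 526 and 434 CPM in STAT5 cKO BMDMs as group means. Ptpn22 was most like Nap1l2 (0.903), Rab7b like Dtwd1 (0.929), Samd1 like Gpr160 (0.901), Fam111a like Tiparp (0.839) and Lipe like Gm11451 (0.924). Levels of Nap1l2 and Gm11451 were low, with group means of 0.557 to 2.91 CPM and 0.612 to 1.81 CPM, near the 1 CPM of the filter. Smad3 was most like Hpcal1 (0.979) and had 269 genes with a correlation over 0.9, against at most 25 for any of the other 9.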

How the data were processed

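RNA-seq of the 15 libraries was analysed from fragment counts. The counts are those deposited by the authors, who trimmed reads (Trimmomatic 0.33), aligned the pairs to GRCm38 (HISAT2 2.1.0) and counted fragments per gene by strand (featureCounts 1.6.2), without normalization. Further libraries named in the header, treated with another conditioned medium, are not analysed here. Of 55385 genes, 55144 matched a symbol. Several of the 10 genes overlap other annotated genes, which strand does not separate for Ptpn22 (Gm15472 and Gm43065).

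The filter left 13005 genes that exceeded 1 CPM in 2 or more libraries. In R 4.3.3 with edgeR 4.0.16, relative log expression factors (0.945 to 1.08) and a model of 6 groups were fitted to all libraries (biological coefficient of variation 0.0787). Contrasts were tested with the quasi-likelihood F test and adjusted by Benjamini-Hochberg over all genes tested, with an adjusted p under 0.01 and no minimum fold. The filter, factors and threshold follow the study's methods, which do not state the test. Correlations used log2 CPM with a prior count of 2. The pipeline was tested on simulated data.

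The 10 genes and the 7 pathway and 9 marker lists were chosen with earlier results of these data known. Named beside the 10 genes are Stat5a and Stat5b, up to 3 genes per list with the smallest adjusted p for the genotypes with 4T1 CM and up to 3 for GM-CSF, the 5 genes most like Bcl6 and the 1 most like each other gene, and the other 3 genes with opposite calls. A few genes that this rule selects are not reported here.

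Libraries were grouped by their labels, and those with the same number in the title were taken to come from 1 mouse, which the sources used here do not say outright. Their deviations from the group means correlated by 0.157 on average in STAT5 cKO (9 pairs, 0.0548 to 0.214) and 0.142 in STAT5 fl/fl (6 pairs, not independent, 0.0926 to 0.213). The mouse was used as a block in an alternative. If a group's libraries were not separate cultures, p-values measure technical spread. Alternatives were TMM factors, no filter, filterByExpr, the likelihood ratio test, DESeq2 1.42.0, a model of only the libraries compared, an adjusted p under 0.05, limma 3.58.1 voom with a random effect of mouse, and the exclusion of each mouse.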

Additional observations from a re-analysis of the deposited data

Results flagged for a closer look

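In 4 of the 10 genes the response to 4T1 CM differed between the genotypes by the interaction test, which 170 genes (1.31% of those tested) passed. Each of the 4 is given here as the response in STAT5 cKO minus that in STAT5 fl/fl BMDMs on the log2 scale. Bcl6 differed by 2.73 (adjusted p = 2.17e-11), falling by 2.27 in STAT5 fl/fl and rising by 0.46 in STAT5 cKO BMDMs. AU022793 differed by -1.65 (adjusted p = 7.52e-05), and Rab7b by 1.03 (adjusted p = 2.37e-05), both also with calls of opposite direction in the 2 genotypes. Smad3 differed by 0.79 (adjusted p = 0.00137), with a rise in both genotypes that was larger in STAT5 cKO BMDMs. The interactions of Bcl6, AU022793 and Rab7b passed in all 14 alternatives and that of Smad3 in 11. The fall of Rab7b in STAT5 fl/fl BMDMs was not called in every alternative, as given above. These tests share the DMEM libraries on which the genes were chosen, and each contains the genotype difference with DMEM given above.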

How the results depend on the processing

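Opposite calls with GM-CSF chose the 10 genes and are not evidence of stability. Of the 10, 9 passed in both genotypes with TMM (Rab7b lost) and without the filter (Lipe lost), 10 in the other fits of all mice. Opposite calls numbered 13 in all and 25 without the filter, 21 with only the libraries compared, 33 at an adjusted p under 0.05, 20 with the replicate block and 5 to 10 without a mouse, the lowest without 112 or 115. The genotypes with 4T1 CM differed in 968 genes, in 1552 without the filter, 279 with only the libraries compared, 1910 at 0.05, and 324 to 800 without a mouse. Of the 10 genes 7 passed there, 4 with only the libraries compared and 4 to 6 without a mouse. The interaction called 170 genes, 477 without the filter, 332 by likelihood ratio, 363 by DESeq2, 87 with only the libraries compared, 426 at 0.05, 295 with the replicate block and 26 to 102 without a mouse. Calls without a mouse ranged from 2668 to 4687 (4835 in all) for 4T1 CM in STAT5 fl/fl, 1763 to 3636 (3730) for GM-CSF in STAT5 fl/fl and 1827 to 2836 (3052) for GM-CSF in STAT5 cKO BMDMs. The interaction of Fzd7 was -0.05 with all mice and ranged from -0.11 to 0.046 without a mouse, positive without 115, and did not pass (adjusted p = 0.913 with all mice and 0.938 without 115). The replicate block, by mouse, changed no other call of the 10 genes than those of Fam111a and Gpr146 given above, and cannot be fitted between genotypes. The causes were not tested. With 1 STAT5 fl/fl mouse left, its libraries are assumed to vary like the others. TMM moved no median of all genes by more than 0.00781 on the log2 scale. By Spearman correlation 5 of the 10 genes kept their most similar gene. The lowest count of the 10 genes in any library was 135, and the number of mice limits every comparison.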

Other observations

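The other 3 genes with opposite calls for GM-CSF had 4T1 CM responses of 1 direction in both genotypes. Tec, a tyrosine kinase gene of immune cells, had log2 fold changes with GM-CSF of 0.27 in STAT5 fl/fl and -0.27 in STAT5 cKO BMDMs, and rose with 4T1 CM in both (0.84, adjusted p = 1.77e-08, and 0.63, adjusted p = 5.18e-08). With 4T1 CM it was lower in cells without STAT5 (-0.43, adjusted p = 0.000133). Rnf180, which encodes a ubiquitin ligase, had 0.26 and -0.44 with GM-CSF, fell with 4T1 CM in both genotypes (-0.35 and -0.95) and was lower with 4T1 CM where STAT5 was deleted (-0.91, adjusted p = 1.55e-07). Gm30329 had -0.69 and 0.32 with GM-CSF and fell with 4T1 CM in both (-2.27 and -1.67), with no call between the genotypes there (-0.22, adjusted p = 0.243). Its genotypes differed with DMEM, lower in STAT5 cKO BMDMs (-0.82, adjusted p = 4.69e-05), and were not called apart with GM-CSF (0.19, adjusted p = 0.186).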
